A study of Mus musculus with 6 samples.

Results

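The genes that tell marginal zone B cells from follicular B cells, *Cr2*, *Cd1d1*, *Cd9*, *Dtx1*, *S1pr3*, *Notch2*, *Mzb1* and *Plac8* for the marginal zone and *Fcer2a* for the follicle, were followed in RNA from sorted liver NK cells. They were chosen by symbol, and all 9 were found among the 57180 genes of the deposited table and passed the filter on low counts. The submitters label the cells as NK cells, gated as CD3- NK1.1+ and separated by CD36, from livers of male C57BL/6J mice of 6 to 8 weeks. The markers went against that label in CD36+ NK. There 10 NK lineage genes summed to 1117 to 1351 CPM (counts divided by the TMM-scaled library total). The 16 core B cell genes summed to 7233 to 8068 CPM. In CD36- NK these sums were 5844 to 7602 and 5094 to 5802 CPM, so B cell RNA was abundant there as well. *Klrb1c*, which encodes NK1.1, was at 88.9 ± 14.8 CPM in CD36+ NK and 489 ± 38.2 CPM in CD36- NK (SD, n = 3). The group names are therefore used as labels. Mice of both groups had been made fibrotic with CCl4 at 2.5 ml/kg (20% in olive oil), injected 2 times weekly over 4 weeks, and livers were harvested 48 h after the final dose, so no group came from untreated liver. There were 3 libraries of CD36+ NK and 3 of CD36- NK, which the submitters describe as biological triplicates without saying whether animals were pooled, and the libraries held 10292480 to 13787189 counts. The gate as described in the methods names no B cell antigen.

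Marginal zone B cells sit at the border of the splenic white pulp, respond early to blood-borne antigens and are known to carry CD36, the marker of this sort, whereas follicular B cells recirculate through the follicles. The choice between these fates depends on the receptor Notch2, which acts in the nucleus through the DNA-binding protein RBPJ. Marginal zone B cells carry much CD21, the complement receptor encoded by *Cr2*, and little CD23, the low-affinity IgE receptor encoded by *Fcer2a*, while follicular B cells carry both. In the mouse, *Cr2* also encodes CD35 through alternative splicing, and counts per gene cannot separate these forms.

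The sequences just upstream of the start are shown for *Cr2* and *S1pr3*, the genes of the set past both thresholds used below, and for *Fcer2a*, the follicular gene. They are 250 bases each, from RefSeq on GRCm38.p6, 5′ to 3′ on the gene's strand, and capitals mark GTGGGAA, the core of the RBPJ motif, searched on both strands.
Cr2, chr1:195176720-195176969, strand -: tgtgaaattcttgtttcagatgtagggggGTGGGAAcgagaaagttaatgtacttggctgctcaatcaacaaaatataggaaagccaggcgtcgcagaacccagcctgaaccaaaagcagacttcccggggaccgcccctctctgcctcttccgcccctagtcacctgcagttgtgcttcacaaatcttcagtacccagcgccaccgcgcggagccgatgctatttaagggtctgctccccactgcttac
S1pr3, chr13:51408368-51408617, strand +: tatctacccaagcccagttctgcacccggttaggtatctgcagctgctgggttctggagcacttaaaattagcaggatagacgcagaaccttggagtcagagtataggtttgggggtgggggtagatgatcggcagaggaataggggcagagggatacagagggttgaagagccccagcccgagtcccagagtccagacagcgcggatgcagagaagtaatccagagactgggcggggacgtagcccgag
Fcer2a, chr8:3694175-3694424, strand -: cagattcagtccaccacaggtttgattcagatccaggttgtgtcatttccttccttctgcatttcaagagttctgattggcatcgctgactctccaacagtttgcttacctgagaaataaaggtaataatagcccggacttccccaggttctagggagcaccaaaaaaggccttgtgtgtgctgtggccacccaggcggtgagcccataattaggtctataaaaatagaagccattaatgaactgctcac
Of the 9 genes, 7 had an upstream window in the RefSeq table, and the motif was found in 2 of them, *Cr2* (starting 221 bases before the start) and *Cd9* (212 bases before it). Among all 32851 windows of this length, 5.4% held it. None of the 3 windows of *Fcer2a* did, which says only that these letters do not occur there.

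*Cd79a*, a B cell receptor gene that marks all B cells, had 941 to 1088 CPM in CD36+ NK against 644 to 825 CPM in CD36- NK, and several marginal zone genes were higher in CD36+ NK. A gene was called when its adjusted p in edgeR's quasi-likelihood test was below 0.05 and its fold change above 2, and 2 of the 9 genes were called, *S1pr3* and *Cr2*, both higher in CD36+ NK. Of all 14761 tested genes, 5.96% were called, 2.98% higher and 2.98% lower, or 440 genes each way, a split that moved to between 94 and 708 higher with 1 library left out. Without the fold threshold 5 of the 9 passed, *Notch2*, *Mzb1* and *Cd1d1* besides these, against 10.5% of all tested genes, or 5.07% in the higher direction. In 7 of the 9 genes every CD36+ NK value exceeded every CD36- NK value, which held for 17.0% of all tested genes, and *Fcer2a* and *Cd9* overlapped between the groups. The median log2 fold change of the 9 was 0.51, against 0.01 over all tested genes. In sorted bulk samples, more B cells and more of this RNA per B cell cannot be told apart.

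**Figure D1:**
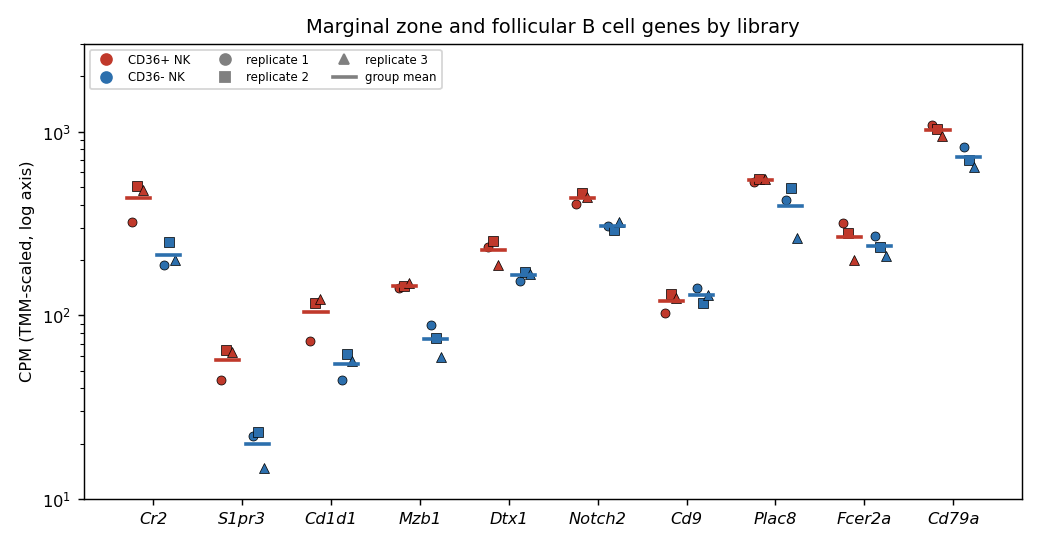
Level of each of the 9 genes and of *Cd79a* in every library, in CPM (TMM-scaled) on a log axis; colours mark the group, symbols the replicate and bars the group mean. *Cr2*, *S1pr3*, *Cd1d1* and *Mzb1* stand clear of the CD36- NK libraries, *Fcer2a* (201 to 319 CPM against 211 to 269) and *Cd9* (103 to 131 against 116 to 141) do not.

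*Cr2* (ENSMUSG00000026616, minus strand of chromosome 1 from 194819119 to 194859024 by the coordinates of the table, whose build is not named) encodes the receptor for C3d-coated antigen. In CD36+ NK replicates 1 to 3 *Cr2* was at 323, 504 and 482 CPM, and in CD36- NK replicates 1 to 3 at 188, 251 and 199.6 CPM. Every CD36+ NK library lay above every CD36- NK library, and replicate 1 was the lowest of its group on both sides. The means were 436 ± 98.8 and 213 ± 33.2 CPM (SD, n = 3), which edgeR put at 1.04 on the log2 scale (standard error, SE, 0.195) with an adjusted p of 0.0206. This is a 2.05-fold difference, just past the threshold, and the call was lost in 4 of 6 fits that left out 1 library. Leaving out replicate 2 or 3 of CD36+ NK gave 0.92 and 0.96 (edgeR adjusted p = 0.0768 and 0.0771), and leaving out replicate 1 or 3 of CD36- NK gave 0.94 and 0.98 (edgeR adjusted p = 0.0789 and 0.076). CD21 works in a complex that includes CD81 on the B cell surface. Of the 10 genes listed for this complex, its complement ligands and related regulators, all were tested and 1 was called, *Cd81*, a tetraspanin found on many cell types, at 182 ± 56.3 against 59.9 ± 12.9 CPM (log2 fold change 1.60, edgeR adjusted p = 0.0115). The median of the list was 0.34.

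*S1pr3* (ENSMUSG00000067586, plus strand of chromosome 13 from 51562675 to 51576833) encodes a receptor for sphingosine 1-phosphate, the lipid whose gradient helps to hold B cells in the marginal zone. It was at 44.3, 64.5 and 63.4 CPM in the CD36+ NK libraries and at 21.9, 23.1 and 14.7 CPM in the CD36- NK libraries. The lowest CD36+ NK library, replicate 1, was still well above the highest CD36- NK library, replicate 2. With means of 57.4 ± 11.3 and 19.9 ± 4.51 CPM (SD, n = 3), its log2 fold change was 1.53 (SE 0.217) with an adjusted p of 0.00776 from edgeR, a 2.88-fold difference and the largest of the 9. *S1pr3* was called in each of the 14 alternative fits, with log2 fold changes from 1.34 to 1.67 and adjusted p-values up to 0.0387. Of the 12 other genes listed for sphingosine 1-phosphate, its receptors, enzymes, transporters and G proteins, 1 was called, *Gna12*, which encodes a G protein subunit (log2 fold change 1.06, edgeR adjusted p = 0.0372). The most counted gene of the list, *Rgs2*, a regulator of G protein signalling, had a value of 0.30 (edgeR adjusted p = 0.356). The other receptors had log2 fold changes of 0.58 for *S1pr1*, -0.65 for *S1pr2*, -0.71 for *S1pr4* and -0.74 for *S1pr5*, none past the fold threshold, and the median of the list was 0.22.

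*Cd1d1* (ENSMUSG00000028076, minus strand of chromosome 3 from 86903141 to 86906748) encodes CD1d, which presents lipids to NKT cells and is abundant on marginal zone B cells. Its levels were 72.1, 116 and 123 CPM in the CD36+ NK libraries and 44.3, 61.6 and 56.3 CPM in the CD36- NK libraries. The groups did not overlap, and replicate 1 was again the lowest on each side. The log2 fold change was 0.94 (SE 0.220) with an adjusted p of 0.0396 from edgeR, a 1.92-fold difference that passed the p threshold and missed the fold threshold. It was called without CD36+ NK replicate 1 (1.13, edgeR adjusted p = 0.00847) or CD36- NK replicate 2 (1.04, edgeR adjusted p = 0.0449), and its edgeR adjusted p was 0.112 to 0.127 when any of the other 4 libraries was left out. The neighbouring copy *Cd1d2* shares 19.06% of the 50-base words of the *Cd1d1* transcripts, so fragments could have been split between them. *Cd1d2* was much less counted, with 345 counts over the 6 libraries against 5715 for *Cd1d1*, and had a log2 fold change of 1.02 (edgeR adjusted p = 0.0636). None of the 8 listed genes of CD1d presentation was called, and all 8 had log2 fold changes above 0, with a median of 0.59. The most counted, *Cd74*, the invariant chain, was at 0.52 (edgeR adjusted p = 0.035).

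*Mzb1* (ENSMUSG00000024353, minus strand of chromosome 18 from 35780320 to 35782420) encodes an endoplasmic reticulum chaperone of marginal zone B cells, B-1 cells and antibody-secreting cells. CD36+ NK libraries held it at 141, 144 and 149.6 CPM and CD36- NK libraries at 88.3, 75.3 and 59.0 CPM. The CD36+ NK libraries were close to each other and far above the others. The log2 fold change was 0.96 (SE 0.147) with an adjusted p of 0.0101 from edgeR, a 1.95-fold difference below the fold threshold. It was called without CD36- NK replicate 1 (1.09, edgeR adjusted p = 0.016), and its adjusted p stayed at or below 0.0444 in all 14 alternative fits. An annotated gene on the same strand, *Gm50318* (ENSMUSG00000117874, named SPATA24 in GENCODE M21), overlaps it, shares 53.52% of its 50-base words by that identifier and received 85 counts against 7941 for *Mzb1*. None of the 12 listed genes of plasma cells and of the chaperone's partners was called, 2 passed the p threshold alone and the median was 0.39. The most counted of them, *Ighm*, the IgM heavy chain, was at 7756 ± 1114 against 4927 ± 881 CPM (log2 fold change 0.65, edgeR adjusted p = 0.0528). *Jchain*, the joining chain of secreted IgM and IgA, overlapped between the groups, at 876 ± 302 and 645 ± 207 CPM.

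*Notch2* (ENSMUSG00000027878, plus strand of chromosome 3 from 97920843 to 98057677), the receptor that marginal zone fate requires, was at 402, 464 and 439 CPM in the CD36+ NK libraries and at 306, 293 and 321 CPM in the CD36- NK libraries. The groups were tight and did not overlap, and edgeR gave 0.51 on the log2 scale (SE 0.0951) with an adjusted p of 0.0206, a 1.42-fold difference. The edgeR adjusted p was 0.0862, 0.0798 and 0.0642 without CD36+ NK replicate 2, CD36+ NK replicate 3 and CD36- NK replicate 1. Under the replicate block it was 0.0518. *Dtx1* (ENSMUSG00000029603, minus strand of chromosome 5 from 120818267 to 120849992), an E3 ligase that is a known Notch target in B cells, was at 236, 254 and 187 CPM against 154, 173 and 168 CPM. Here too the lowest CD36+ NK library lay above the highest CD36- NK library, but the log2 fold change of 0.45 (SE 0.131), with an edgeR adjusted p of 0.0731, did not pass.

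The other Notch pathway genes showed no common direction. Of 37 listed, 33 were tested, 2 were called higher and 2 lower, and the median log2 fold change was -0.05, with 15 of 33 values above 0. Among the ligands, *Jag1* rose from 2.00 ± 0.108 CPM in CD36- NK to 6.86 ± 1.01 CPM in CD36+ NK (log2 fold change 1.77, edgeR adjusted p = 0.00481) and *Dll1* fell from 11.3 ± 2.03 to 4.21 ± 0.528 CPM (-1.42, edgeR adjusted p = 0.00786). Of the targets and modifiers, *Dtx4*, a relative of *Dtx1*, was called higher (1.16, edgeR adjusted p = 0.0384) and *Nrarp*, a feedback inhibitor induced by Notch, was called lower (-1.24, edgeR adjusted p = 0.00734). The most counted, *Lfng*, a glycosyltransferase that tunes ligand choice, was at -0.77 (edgeR adjusted p = 0.00406), and the receptor *Notch1* at -0.95 (edgeR adjusted p = 0.0354), both below the fold threshold. The direct targets *Hes1* and *Hes5* were at 0.72 and 1.11, with edgeR adjusted p-values of 0.114 and 0.104. These genes are also used by T cells and NK cells, and the list of 10 NK lineage genes was called lower in full, with log2 fold changes from -2.58 to -2.20, led by *Gzma*, *Prf1* and *Eomes* (-2.57, -2.51 and -2.58). Its part in the Notch values was not tested.

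**Figure D2:**
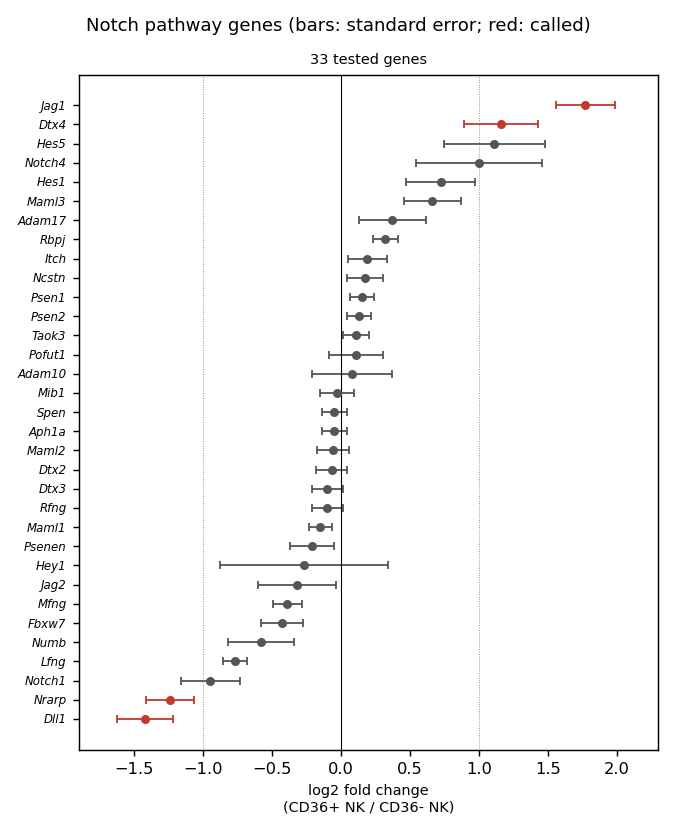
Log2 fold change (CD36+ NK over CD36- NK) of the 33 tested Notch pathway genes other than *Notch2* and *Dtx1*, with standard errors from the edgeR fit; red points are called and dotted lines mark a 2-fold change. *Jag1* and *Dtx4* lie at the top and *Nrarp* and *Dll1* at the bottom, with most others around 0.

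*Cd9* (ENSMUSG00000030342, minus strand of chromosome 6 from 125437229 to 125471754) encodes a tetraspanin that marks marginal zone and B-1 cells and is also abundant on macrophages and platelets. It was at 103, 131 and 124 CPM in CD36+ NK and at 141, 116 and 129 CPM in CD36- NK. The libraries overlapped, and the log2 fold change was -0.11 (SE 0.123) with an adjusted p of 0.630 from edgeR, between -0.18 and -0.03 in the 14 alternative fits. It was the marginal zone gene of the set with no higher mean in CD36+ NK. Among the 14 other tetraspanins listed, 2 were called higher, *Cd81* and *Tspan3* (1.01, edgeR adjusted p = 0.0481), and the most counted, the leukocyte tetraspanin *Cd37*, was at 0.10 (edgeR adjusted p = 0.529). The median of that list was 0.64.

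*Plac8* (ENSMUSG00000029322, minus strand of chromosome 5 from 100701591 to 100720111) encodes a small cysteine-rich protein found in B cells, plasmacytoid dendritic cells and myeloid cells. It was the most counted of the 9, at 529, 554 and 549 CPM in CD36+ NK and 422, 492 and 262 CPM in CD36- NK. The CD36+ NK libraries lay close together above a wide CD36- NK group, whose replicate 3 was far lower than the others. The log2 fold change of 0.47 (SE 0.214), with an edgeR adjusted p of 0.216, did not pass, and it was 0.24 without CD36- NK replicate 3. Of the 10 listed genes of plasmacytoid dendritic cells, none was called higher and 1 lower, *Cox6a2*, at means of 0.618 and 1.80 CPM, with a list median of 0.24. *Siglech*, their defining lectin, was at 3.35 ± 0.976 and 2.83 ± 0.805 CPM, and the most counted gene, *Irf8*, overlapped between the groups.

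*Fcer2a* (ENSMUSG00000005540, minus strand of chromosome 8 from 3731737 to 3744175), the follicular gene, was at 319, 280.3 and 201 CPM in CD36+ NK and at 269, 235 and 211 CPM in CD36- NK. The CD36+ NK libraries spanned both the highest and the lowest value of all 6. The means were 267 ± 60.1 and 238 ± 29.3 CPM (SD, n = 3), which edgeR put at 0.16 on the log2 scale (SE 0.181) with an adjusted p of 0.633, and 0.00 to 0.33 in the alternative fits. Of the 8 genes listed for CD23 shedding and IgE, none was called, and the median was 0.00. *Adam10*, the protease that sheds CD23 and also cleaves Notch2, was at 128 ± 34.7 and 121 ± 39.2 CPM. The most counted gene of the list, *Fcer1g*, the shared Fc receptor gamma chain, was at 329.7 ± 47.1 and 314 ± 37.4 CPM.

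Levels between genes can be compared only per length, for which the FPKM values of the authors were used. In CD36+ NK, *Plac8* was the highest of the 9, at 218 ± 4.15 FPKM, and *S1pr3* the lowest, at 12.6 ± 2.26 FPKM, with no other gene overlapping either. Between them came *Mzb1* at 78.2 FPKM, *Fcer2a* at 64.2, *Cd9* at 49.5, *Notch2* at 38.2, *Cr2* at 35.3, *Cd1d1* at 25.1 and *Dtx1* at 23.3. Neighbours in this order overlapped between libraries except at *Cd9* against *Notch2*. In CD36- NK, *Plac8* (162 ± 51.0 FPKM) and *S1pr3* (4.53 ± 1.09 FPKM) again stood at the ends. *Fcer2a* and *Cd9* (58.6 and 55.0 FPKM), which overlapped, came before *Mzb1* (41.3 FPKM), *Notch2* (27.7), *Cr2* and *Dtx1* (17.8 and 17.5, overlapping) and *Cd1d1* (13.5). *Mzb1* thus stood above *Fcer2a* in the mean of CD36+ NK and below every *Fcer2a* value in CD36- NK.

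The B cell receptor gene *Cd79a* was itself higher in CD36+ NK, at 1088, 1027 and 941 CPM against 825, 699.8 and 644 CPM, without overlap (0.49 on the log2 scale, SE 0.122, with an edgeR adjusted p of 0.0457 that reached 0.136 over the alternatives). Levels were therefore also taken relative to *Cd79a* in each library, as log2 of the ratio of CPM values with 2 added to each, and compared by a two-sided exact permutation test over samples, whose smallest p with 3 against 3 is 0.1. In 4 of the 9 genes the groups did not overlap on this scale, 2 higher and 2 lower in CD36+ NK. Of the other 14760 tested genes, 61.7% did not overlap on this scale, 1.70% higher and 60.0% lower.

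*S1pr3* amounted to 4.07%, 6.28% and 6.74% of the *Cd79a* CPM in CD36+ NK and 2.66%, 3.30% and 2.29% in CD36- NK, a difference of 0.94 in the log2 ratio (exact permutation test, p = 0.1). *Mzb1* amounted to 12.9%, 14.0% and 15.9% against 10.7%, 10.8% and 9.16%, a difference of 0.46 (exact permutation test, p = 0.1). Both were higher in 3 of 3 libraries. *Cr2* had a difference of 0.51, with 29.7%, 49.1% and 51.2% against 22.8%, 35.8% and 31.0% of *Cd79a*, and its groups overlapped, since CD36+ NK replicate 1 lay below CD36- NK replicates 2 and 3 (exact permutation test, p = 0.3). *Cd1d1*, at 0.39, overlapped likewise (exact permutation test, p = 0.4). Without CD36+ NK replicate 1 *Cr2* and *Cd1d1* lay higher without overlap, by 0.76 and 0.68. With any other library left out both overlapped. *Notch2*, *Plac8* and *Dtx1* differed by 0.00, 0.02 and -0.06 and overlapped.

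*Fcer2a* lay lower in CD36+ NK relative to *Cd79a*, with 29.3%, 27.3% and 21.4% against 32.6%, 33.5% and 32.8% (difference -0.35, exact permutation test, p = 0.1), and so did *Cd9*, with 9.43%, 12.7% and 13.2% against 17.1%, 16.6% and 20.1% (difference -0.61, exact permutation test, p = 0.1). Most tested genes lay lower on this scale, so these 2 are near the background. Adjusted over 10 comparisons, the 9 genes and the ratio of *Cr2* to *Fcer2a*, the smallest Benjamini-Hochberg value of these exact permutation tests was 0.25. With the summed CPM of the other core B cell genes in place of *Cd79a*, a reference chosen after the data were seen, *S1pr3* and *Mzb1* were higher and *Cd9* lower without overlap, by 0.97, 0.49 and -0.59, and *Fcer2a* overlapped (-0.33).

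**Figure D3:**
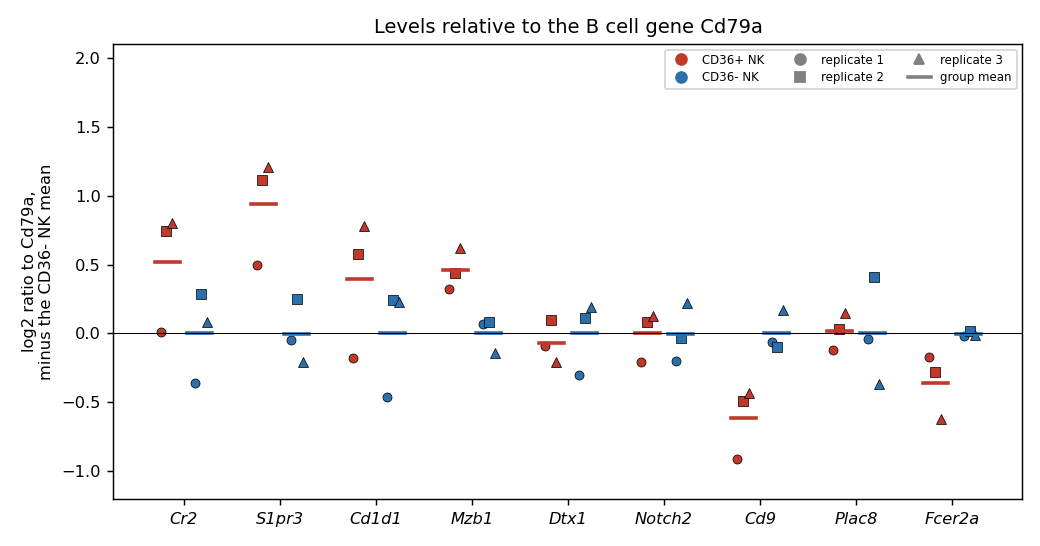
Log2 ratio of each gene's CPM to that of *Cd79a* in every library, shown as the distance from the CD36- NK mean; colours mark the group, symbols the replicate and bars the group mean. *S1pr3* and *Mzb1* lie above and *Cd9* and *Fcer2a* below all CD36- NK libraries, and replicate 1 of CD36+ NK is the lowest of its group in 7 of the 9 genes, all but *Dtx1* and *Fcer2a*.

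The marginal zone gene *Cr2* was set directly against the follicular gene *Fcer2a* within each library. *Cr2* counts were 1.01, 1.80 and 2.39 times those of *Fcer2a* in CD36+ NK and 0.700, 1.07 and 0.947 times in CD36- NK. The difference of the mean log2 ratios was 0.87, but CD36+ NK replicate 1 lay below CD36- NK replicate 2, and the exact permutation test gave p = 0.2. Without CD36+ NK replicate 1 or without CD36- NK replicate 2 the groups did not overlap, with differences of 1.21 and 1.00. With any other library left out they overlapped. The smallest p that 5 libraries allow is 0.2. Among the CD36+ NK libraries, replicate 1 also had the lowest *Cd36*, at 109.7 CPM against 263 and 238, and the highest *Fcer2a*.

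**Figure D4:**
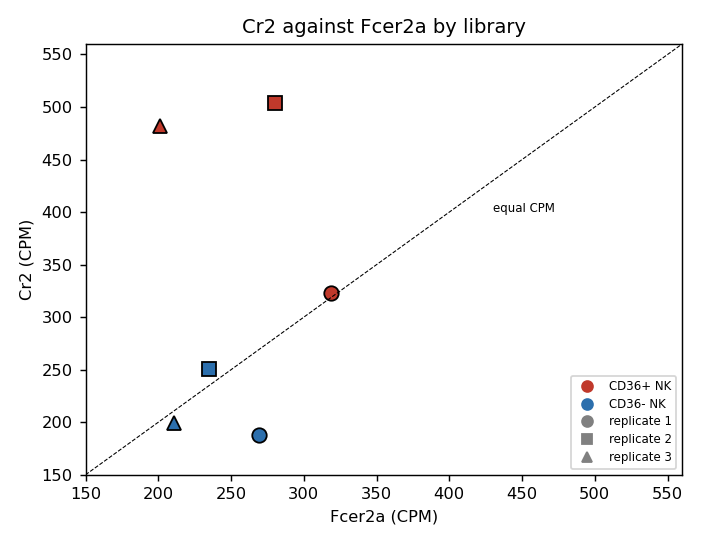
*Cr2* against *Fcer2a* in each library, both in CPM; the dashed line marks equal CPM. Replicates 2 and 3 of CD36+ NK stand far above the line, while CD36+ NK replicate 1 lies on it, at 323 CPM of *Cr2* and 319 CPM of *Fcer2a*.

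A wider list of marginal zone genes was read beside a list of follicular genes. Of 12 other marginal zone genes, 4 were called higher, where 2.98% of all tested genes were, and none lower. All 12 had log2 fold changes above 0, with a median of 1.05. The list includes *Cd36*, which the sort itself set apart. It was also drawn up with earlier results of these data known, so these counts are a description. *Cd36*, the sorted marker, had a log2 fold change of 3.27 (edgeR adjusted p = 0.00615), *Fcrl5*, an inhibitory receptor of marginal zone and B-1 cells, was at 78.8 ± 20.5 against 26.4 ± 7.55 CPM (1.58, edgeR adjusted p = 0.0131), and *Cd81* has been given above. The fourth, *Zc3h12c*, had 1.35 (edgeR adjusted p = 0.0388). *Fcrl5* was at 55.5, 87.5 and 93.5 CPM in CD36+ NK, with replicate 1 lowest here too, and at 22.5, 35.1 and 21.6 CPM in CD36- NK. In CD36+ NK the macrophage gene *Csf1r* was at 1138, 1726 and 2342 CPM. *Fcrl5* had the same order of libraries, as had *Cd81* (129.5, 174 and 241), *Zc3h12c* (36.7, 59.1 and 78.4), *Asb2* (97.7, 127 and 205), *Myof* (70.0, 109 and 114) and *Hes1* (71.9, 102 and 112) of this list and *Cd1d1* and *Mzb1* of the 9. In CD36- NK *Csf1r* was at 411, 748 and 242 CPM. *Fcrl5*, *Cd81* and *Myof* kept its order there, and *Zc3h12c*, *Asb2*, *Hes1*, *Cd1d1* and *Mzb1* did not. The part of macrophage RNA in these genes was not tested. *Cnr2*, the cannabinoid receptor that helps to keep B cells in the marginal zone, had 0.48 (edgeR adjusted p = 0.0429).

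Of 8 other follicular genes none was called, 4 had log2 fold changes above 0 and the median was -0.01. *Ighd*, the IgD heavy chain, was at 589.9 ± 132 and 532 ± 46.3 CPM, and *Cxcr5*, the follicle homing receptor, was at 0.57 (edgeR adjusted p = 0.0324), below the fold threshold. The most counted, *Klf2*, was at -0.20 (edgeR adjusted p = 0.486). *Satb1*, a chromatin organiser that T cells also express, passed the p threshold alone in the lower direction, at -0.97. Of 16 core B cell genes, which mark all B cells, none was called, 9 passed the p threshold alone and all 16 had log2 fold changes above 0, between 0.10 and 0.74 with a median of 0.50, and in 14 the groups did not overlap. *S1pr3*, *Cr2*, *Mzb1* and *Cd1d1* had larger log2 fold changes than any of these 16. This is a comparison of values and was not tested as such.

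**Figure D5:**
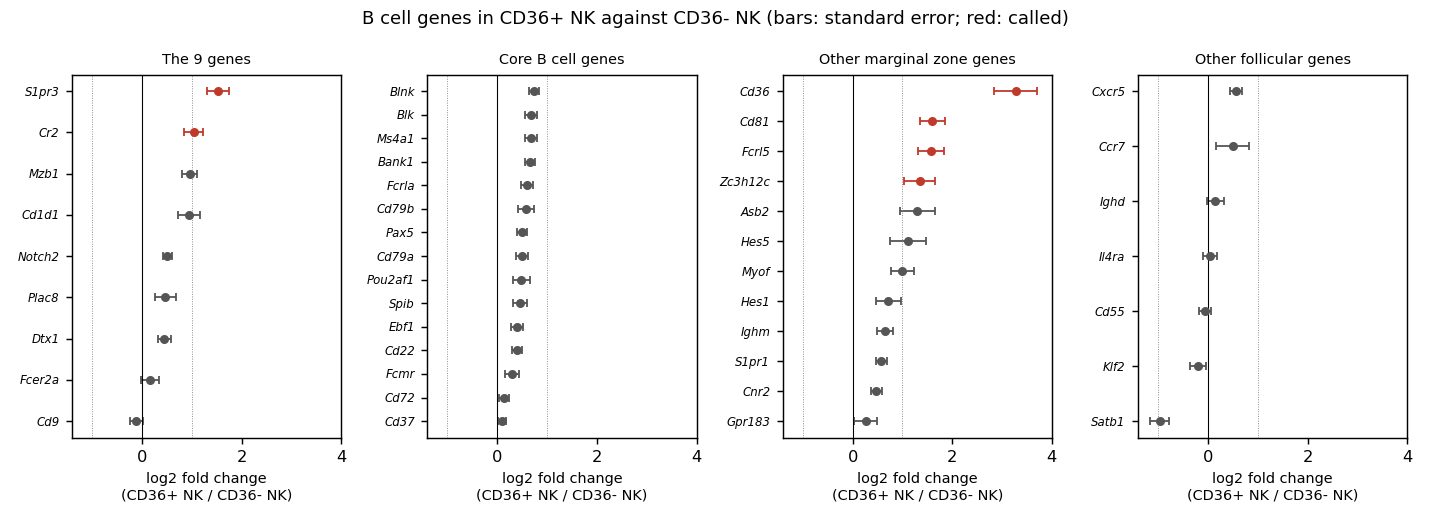
Log2 fold changes (CD36+ NK over CD36- NK) with standard errors from the edgeR fit for the 9 genes and for the core B cell, other marginal zone and other follicular genes, of which 1 core and 1 follicular gene are not drawn; red points are called and dotted lines mark a 2-fold change. The core B cell genes cluster around 0.50, the other marginal zone genes reach from 0.26 to 3.27, and the other follicular genes fall on both sides of 0.

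Other cells were represented in both fractions, and their part in these values was not tested. Sums for the core B cell and NK lineage genes were given at the start. In 8 of 8 tested macrophage and Kupffer cell genes the CD36+ NK libraries lay higher without overlap, and 3 were called (*Marco*, *Csf1r* and *Adgre1*), with a sum of 2251 to 5584 against 364 to 1366 CPM. *Clec4f*, a defining Kupffer cell marker, had no count in CD36- NK or in CD36+ NK replicate 3 and was at 1.51 and 45.9 CPM in CD36+ NK replicates 1 and 2. T cell genes summed to 37.7 to 352 against 67.6 to 148 CPM, and *Cd3e*, a defining T cell gene, was at 27.0 CPM in CD36+ NK replicate 1 and at most 1.06 CPM in the other 5 libraries. Neutrophil genes also stood apart in that library within its group, with *Ngp*, a granule protein gene, at 1761 CPM against 252 and 387 CPM in CD36+ NK replicates 2 and 3, while the CD36- NK libraries had 1613, 896 and 687 CPM. Without CD36+ NK replicate 1 *Cr2*, *S1pr3* and *Cd1d1* were called, with log2 fold changes of 1.20, 1.67 and 1.13 (edgeR adjusted p = 0.00667, 0.00638 and 0.00847). Macrophages also express *Cd9* and *Notch2*, and myeloid cells *Plac8*. Replicate 1 of either group has a library name in a different format from the rest. Within replicate 1 alone the log2 differences were 0.77 for *Cr2*, 0.95 for *S1pr3*, 0.68 for *Cd1d1* and 0.66 for *Mzb1*, and within replicates 2 and 3 they were 1.13, 1.69, 1.00 and 1.12. Those of *Fcer2a* were 0.24 and 0.09.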

How the data were processed

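Sequenced RNA came from 3 samples of CD36+ NK and 3 of CD36- NK. Reads had been filtered by the authors with Seqtk, aligned by HISAT2 (version 2.0.4 per the submitters' processing notes) and turned into fragment counts by StringTie. The deposited counts are not normalized, and the deposited FPKM values of the authors, per gene length and library total, served only to order genes. The submitters' notes list a rat assembly beside mouse gene identifiers, and no mouse build is given in the sources used here. The lines of 2 genes broken in the table were rejoined.

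Groups follow the sample titles, and columns were matched by library name. For CD36- NK, titles and library names number the replicates differently (replicates 2 and 3 by title are numbers 1 and 2 by library name), so the numbering of its replicates, the replicate block and the same-numbered pairs rest on the match by library name, while group membership does not. Library names write the sign of CD36 differently from titles, and *Cd36* was at 109.7 to 263 CPM in libraries titled CD36+ NK and 14.3 to 31.7 CPM in the rest. Genes passing edgeR's filterByExpr (minimum count 10) were scaled by TMM and tested with edgeR 4.0.16 (quasi-likelihood, Benjamini-Hochberg adjustment over 14761 genes, no block) in R 4.3.3, with thresholds of 0.05 and 2-fold. SE was computed as the size of the log2 fold change over the square root of F. The biological coefficient of variation was 20.3%. Replicates differed by more than counting noise (chi-square per degree of freedom 14.8 to 29.1). Ratios used 2 CPM as pseudocount and exact permutation tests in scipy 1.17.1. Shared 50-base words were counted on GENCODE M21 transcripts. In simulated counts of this comparison over 14761 genes, 195 of 200 genes changed 4-fold and 2 unchanged genes were called. The simulation gave every gene the same dispersion and held no 2-fold changes, so it does not bear on calls near the fold threshold.

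Named are the 9 genes, *Cd79a*, *Cd36*, up to 3 called genes of lowest p in each direction and the most counted gene of each list (1 is not reported here), and for *Cr2* and *Fcer2a* the genes of most similar pattern. Others were named after their values were seen. The 9 genes and all lists were chosen with earlier results of these data known. Alternatives were upper-quartile scaling, other filters, DESeq2 1.42.0, edgeR's exact test, no fold threshold, a pseudocount of 0.5, blocks and left-out libraries.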

Additional observations from a re-analysis of the deposited data

How the results depend on the processing

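*S1pr3* was called in all 14 alternative fits and *Cr2* in 10 of 14, with each exception a left-out library. The number of genes called over the table was 880. It was 1552 without a fold threshold, 560 under the replicate block (221 of them higher) and 417 (94 higher, without CD36- NK replicate 1) to 1160 (708 higher, without CD36- NK replicate 2) with 1 library left out. Of the 9 genes, 2 were called, 5 without a fold threshold and 1 to 3 with 1 library left out. Leaving out replicate 2 or 3 of CD36+ NK or replicate 3 of CD36- NK gave the 1. With the replicate block 2 of the 9 were called, and *Notch2* no longer passed the p threshold (edgeR adjusted p = 0.0518). DESeq2 called 1143 genes (652 higher) and edgeR's exact test 1247 (723 higher), and each called 2 of the 9. Blocks for the form of the library name and for pairs of libraries of like name form, added after the data were seen, gave 912 and 1061 genes and 2 of the 9 each. In these pairs CD36+ NK replicate 2 and CD36- NK replicate 3 also shared the number in the library name. CD36+ NK replicate 3 and CD36- NK replicate 2 were paired because they remained. Relative to *Cd79a*, 4 of the 9 did not overlap, where 61.7% of all tested genes did not. With 1 library left out these were 4 to 6 of the 9 (all genes 63.7% to 77.9%), when every same-numbered pair had to differ one way (replicate block) 6 (82.2%), within replicates 2 and 3 alone 7 (83.4%) and against the summed core B cell genes 3 (67.4%), the last 2 settings also added later. By direction, leaving out 1 library gave 2 to 4 of the 9 higher (all genes 1.80% to 4.93%) and 2 or 3 lower (61.6% to 76.1%). The *Cr2* to *Fcer2a* difference was 0.59 to 1.21 with 1 library left out. In the replicate block it is 0.87 by construction, since each group holds every replicate number. Deviations of same-numbered libraries from their group means correlated at 0.367, 0.0871 and -0.086 in replicates 1 to 3, across genes, and 2 of 6 libraries correlated best with their own number, so the numbers were not taken as pairs. Counting error is small at these depths, and 3 libraries a group limit the precision.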

Other observations

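Genes of B-1 cells, which share *Cd9*, *Mzb1* and *Fcrl5* with marginal zone B cells, were measured beside them. Of 6 listed, 2 were called higher in CD36+ NK, where 2.98% of all tested genes were, and none was called lower. These were the transcription factor genes *Zbtb32* (17.9 ± 2.21 against 7.00 ± 1.15 CPM, log2 fold change 1.35, edgeR adjusted p = 0.00626) and *Bhlhe41* (1.12, edgeR adjusted p = 0.0311). Of the 6, 4 had log2 fold changes above 0. *Spn* lay lower in CD36+ NK without overlap, at 401 ± 66.6 against 537 ± 24.0 CPM (-0.42, edgeR adjusted p = 0.0948). The most counted, *Bhlhe40*, was at -0.75 (edgeR adjusted p = 0.201). *Cd5*, a gene of B-1 cells and T cells, was at 36.9 CPM in CD36+ NK replicate 1, the library with the T cell RNA, and at 1.40 to 2.41 CPM in the other 5.

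The tested genes whose log2(CPM + 2) followed *Cr2* most closely over the 6 libraries were *Slit3*, *Ppl* and *Pcnx* (Pearson r 0.999, 0.999 and 0.998), and those that followed *Fcer2a* were *Parpbp*, *Gm39556* and *Ecm1* (0.988, 0.988 and 0.980). These values are a description of 6 libraries that fall into 2 groups, picked as the highest among all tested genes.

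Of the remaining cell type lists, genes were called in both directions only for conventional dendritic cells. *Xcr1* and *Clec9a* were higher (log2 fold changes 2.46 and 2.03) and *Itgax* was lower (-1.13), in sums of 724 to 757 against 775 to 853 CPM. *Itgax*, the most counted, was at 234 ± 32.4 against 513 ± 98.3 CPM and so holds much of these sums. Of the 8 genes, 6 had log2 fold changes above 0, with a median of 0.47. Erythroid genes (5 of 8 called, median 1.84, led by *Alas2*, *Hba-a2* and *Hbb-bs*), T cell genes (2 of 8, *Cd4* and *Cd8a*, with the most counted, *Cd28*, at -1.52 and not called), platelet genes (2 of 6 tested, *Ppbp* and *Pf4*, with *Itga2b* most counted at -0.43), endothelial genes (1 of 5, *Dnase1l3*, with *Pecam1* most counted at 0.38), stellate cell genes (1 of 3, *Pdgfrb*, with *Ngfr* most counted at -0.22 and *Lrat* at 0 in every library) and hepatocyte genes (1 of 2, *Trf*, a gene that other cells express as well) were called in the higher direction alone. Of 8 monocyte genes 1, *Ccr2*, was called lower, and the most counted, *Fn1*, was at 541 ± 157 and 542 ± 201 CPM. Of 8 neutrophil genes none was called, with sums of 737 to 4350 against 1444 to 3499 CPM and the most counted, *Ngp*, at -0.41. In CD36+ NK replicate 1 *S100a8* (824 CPM against 121 and 154 CPM in the rest of its group) and *Mmp9* (204 against 24.0 and 16.8 CPM) were high as well, and the part of these cells in the values of that library was not tested.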
